A study of Mus musculus with 30 samples.

Results

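Messenger RNA levels of 10 genes of the YAP and TEAD pathway were followed through melanoma tumours of 5 mouse cell clones, untreated and drug treated. The genes were taken from a list of pathway members by symbol: the coactivators Yap1 and Wwtr1 (the gene of TAZ), the DNA-binding partner Tead1, the target genes Ankrd1 and Crim1, the targets that also restrain the pathway, Amotl1, Amotl2, Lats2 and Ptpn14, and the upstream regulator Ajuba. All 10 were found among the 54532 features of the deposited tables. The rule itself uses no measured value, but the list was drawn up with earlier results of these data known.

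The tumours grew under the skin from YUMM1.7 cells, a mouse melanoma line, and carry the strain label C57BL/6. Cells of 5 clones had been isolated by CaTCH, a method that retrieves a chosen clone by its barcode, and each clone is 1 line. They were recovered from the tumours by their GFP signal, with a viability dye and a CD45 antibody, which marks immune cells, in the staining. There were 2 pairs, 2646TN with 2646R and 14559TN with 14559R, and an unpaired clone, 13TN, whose sample titles call it Depleted1; TN and R are not spelled out in the sources used here and serve only as names. Each clone gave 3 untreated tumours and 3 tumours treated with RAFi/MEKi, inhibitors of the kinases RAF and MEK whose names, doses and duration are not given in the sources used here. That makes 10 groups and 30 libraries. Every tumour has a code of its own, so a p-value measures the spread between tumours of 1 clone and not the spread between clones.

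YAP and TAZ are transcriptional coactivators that bind no DNA by themselves and act through TEAD factors. The Hippo kinases, which end in LATS1 and LATS2, phosphorylate them and hold them in the cytoplasm. Several target genes, among them Amotl2, Lats2 and Ptpn14, encode proteins that bind or phosphorylate YAP and TAZ and so close a feedback loop. Phosphorylation and localisation cannot be read from messenger RNA. In melanoma the pathway is known as one of the programmes linked to tolerance of RAF and MEK inhibitors.

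The core of the TEAD binding motif is GGAATG, or CATTCC on the other strand. RefSeq promoter windows, 250 bases before and 50 bases after a start site on GRCm38.p6, were available for 9 of the 10 genes in 11 windows. The motif was found in 9 of the 11 windows, while 14.7% of all 32851 windows held it. By gene, it was found in 8 of the 9, and in 16.6% of the 27025 genes with a window. The windows of Wwtr1 overlap and share the same site, which is counted in each. Ankrd1 and Ajuba each had 2 matches in their window, as did 1.36% of all windows. A second motif, TGANTCA of the AP-1 factors, which often accompany TEAD, was in none of the 9 genes. It was in 8.97% of all genes with a window and in 7.81% of all windows. A match is a description of letters and not evidence of binding.

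The 250 bases before the start of Wwtr1, Crim1 and Ptpn14 are shown because these 3 genes were called in the most comparisons below. They are written 5′ to 3′ on the strand of the gene, with the TEAD core in capitals.
Wwtr1 (chr3:57575911-57576160, minus strand): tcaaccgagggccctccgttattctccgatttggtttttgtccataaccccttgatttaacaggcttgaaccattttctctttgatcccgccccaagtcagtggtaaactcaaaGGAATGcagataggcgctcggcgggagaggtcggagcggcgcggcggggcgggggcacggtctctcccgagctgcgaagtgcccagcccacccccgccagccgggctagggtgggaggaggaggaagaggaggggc
Crim1 (chr17:78199998-78200247, plus strand): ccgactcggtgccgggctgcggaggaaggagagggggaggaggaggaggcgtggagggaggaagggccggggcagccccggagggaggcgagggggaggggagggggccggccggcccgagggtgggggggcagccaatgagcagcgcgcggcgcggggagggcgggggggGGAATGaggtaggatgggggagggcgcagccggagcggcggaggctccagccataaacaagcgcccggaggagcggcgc
Ptpn14 (chr1:189728018-189728267, plus strand): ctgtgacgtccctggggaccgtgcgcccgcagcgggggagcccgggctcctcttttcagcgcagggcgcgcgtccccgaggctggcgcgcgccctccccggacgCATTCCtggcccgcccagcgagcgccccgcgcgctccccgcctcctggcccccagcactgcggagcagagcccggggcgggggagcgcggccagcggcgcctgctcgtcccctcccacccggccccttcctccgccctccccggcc

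For Ankrd1, for Amotl2, for Ajuba and for Yap1, 30 bases around each match are shown in the same way. Ankrd1 is included because its counts came almost wholly from 1 clone pair, Amotl2 because its group means ran from 2.54 to 20.7 CPM, Ajuba for its 2 matches and Yap1 as the namesake of the pathway. The matches of Ankrd1 lie 210 and 123 bases before its start.
Ankrd1 (chr19:36120037-36120066, minus strand): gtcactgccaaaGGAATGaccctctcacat
Ankrd1 (chr19:36119950-36119979, minus strand): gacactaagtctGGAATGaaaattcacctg
Amotl2 (chr9:102717727-102717756, plus strand): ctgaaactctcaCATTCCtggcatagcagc
Ajuba (chr14:54577830-54577859, minus strand): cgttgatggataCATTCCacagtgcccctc
Ajuba (chr14:54577808-54577837, minus strand): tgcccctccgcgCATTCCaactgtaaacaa
Yap1 (chr9:8004720-8004749, minus strand): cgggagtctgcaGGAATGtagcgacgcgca

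The libraries held 3022801 to 5278453 counts, with 14669 to 17234 genes detected in each. Counts are of transcript 3′ ends, so levels, in CPM, the count scaled to the size of its library with TMM factors, are compared between groups and not between genes. All 10 genes passed the filter on low counts among the 13286 genes tested, Ankrd1 through its counts in the 2646 groups. The spans of Tead1, Crim1, Amotl1, Lats2 and Ptpn14 overlap another annotated gene on the same strand, so reads from any shared exon make their values less certain. Of the 7 pigment cell markers checked, Dct, Tyr and Tyrp1 had no count in any of the 30 libraries, while Mitf reached a group mean of 64.4 CPM. Summed fibroblast markers ranged from 1436 to 13585 CPM between libraries and macrophage markers from 18.2 to 229 CPM. Within sorted bulk samples, fewer cells of a type and less RNA per cell cannot be told apart.

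**Figure D1:**
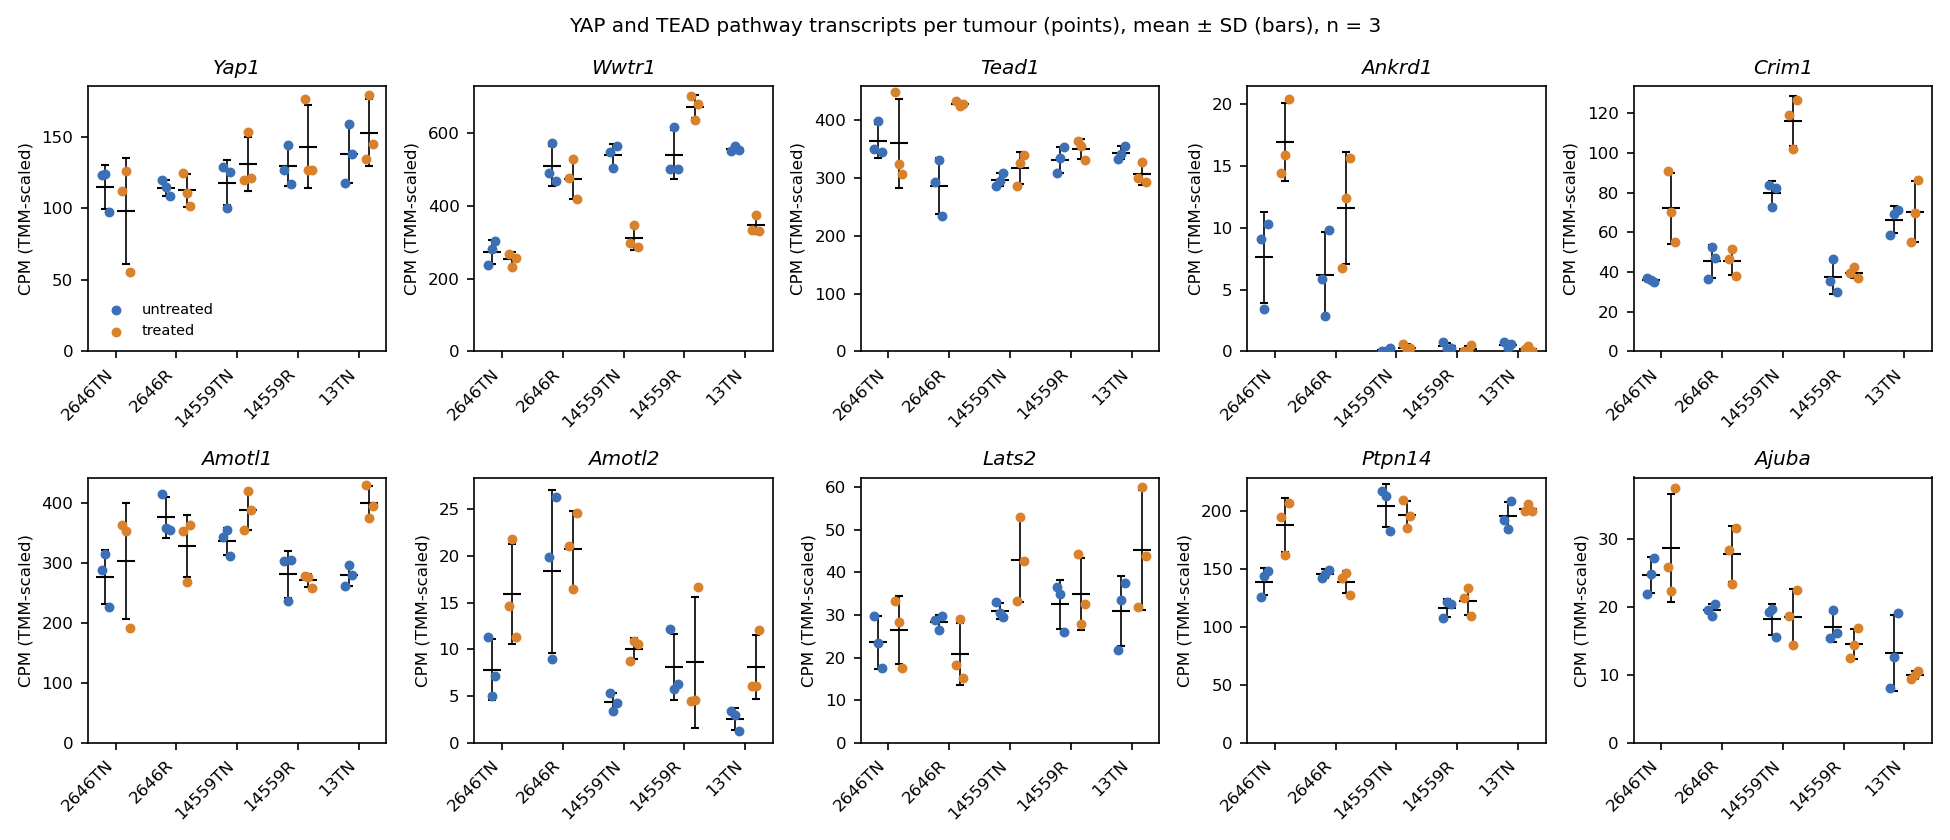
Level of each of the 10 genes in CPM (vertical axis, from 0) in every tumour of the 5 clones, untreated (blue) and treated (orange). Points are tumours, and bars give the mean ± SD of 3. Ankrd1 is near 0 outside the 2646 clones, and Wwtr1 falls with treatment in 14559TN and 13TN.

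A gene was called at an adjusted p under 0.05 (edgeR quasi-likelihood test, Benjamini-Hochberg over all tested genes). Treatment called 2 of the 10 genes in 2646TN, where 3.94% of all tested genes were called. It called 1 in 2646R (19.9% of all), 2 in 14559TN (28.4%), none in 14559R (0.196%) and 3 in 13TN (31%). In 14559R the unadjusted p was under 0.05 for 1 of the 10 genes, and none was called by DESeq2. The share of all tested genes at an unadjusted p under 0.05 is not given, here or below. Such counts are therefore not read as above or below it. The median log2 response of the 10 genes was 0.19, -0.01, 0.18, 0.08 and 0.07 in these clones in order, against 0.01, 0.01, 0.00, 0.00 and 0.00 over all tested genes. Only in 2646TN was the share of the 10 genes called above that of all tested genes.

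The clones themselves were compared with the treatment held fixed. Between 2646R and 2646TN, 4 were called in untreated tumours (36.6% of all tested genes) and 3 in treated tumours (20.1%). Between 14559R and 14559TN, 2 were called untreated (24.1%) and 4 treated (49.4%). Among the untreated TN clones, 4 were called between 2646TN and 14559TN (18.9%), 6 between 2646TN and 13TN (16.2%) and none between 14559TN and 13TN (11.2%). In that last comparison the unadjusted p was under 0.05 for 0 of the 10 genes, and none was called by DESeq2. The response differed between the clones of a pair for 2 genes in the 2646 pair (4.15%) and for 1 gene in the 14559 pair (12%). These comparisons share groups, so they are not independent: each untreated group serves as the control of its response and enters the comparisons between clones.

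Over the 14 comparisons Wwtr1 and Crim1 were each called in 8, Ptpn14 in 6, Tead1, Amotl1 and Amotl2 in 3, Ankrd1 in 2 and Ajuba in 1. Yap1 and Lats2 were called in none.

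Yap1 lies on GRCm38 at chr9:7931999-8004596, minus strand, and encodes the YAP coactivator. Its group means ran from 97.9 ± 37.2 CPM (SD, n = 3) in treated 2646TN to 153 ± 23.4 CPM in treated 13TN. Each group in this order overlapped the next. The log2 responses were -0.23, -0.03, 0.15, 0.14 and 0.15 in 2646TN, 2646R, 14559TN, 14559R and 13TN. The edgeR adjusted p of these 5 responses was 0.642, 0.946, 0.595, 0.853 and 0.603. Their 95% intervals reached from -0.64 at the lowest to 0.56 at the highest. In treated 2646TN tumours, Yap1 was at 112, 126 and 55.8 CPM. The third of these tumours was the lowest of all 30, and it was also the lowest of all 30 for Amotl1, at 192 CPM.

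Wwtr1, at chr3:57455649-57575910 on the minus strand, encodes TAZ, the paralog of YAP. Treatment lowered it in 14559TN and 13TN, and the other 3 clones did not pass the test for a response. In 14559TN tumours it was at 549, 504 and 566 CPM untreated and at 298, 347 and 288 CPM treated. In 13TN tumours it was at 552, 566 and 555 CPM untreated and at 335, 376 and 332 CPM treated. Every treated tumour of these clones was below every untreated one. Wwtr1 fell by 0.79 ± 0.12 on the log2 scale (SE) in 14559TN and fell by 0.68 ± 0.12 in 13TN, with edgeR adjusted p of 5.81e-06 and 4.5e-05.

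In 14559R tumours Wwtr1 was at 503, 619 and 501 CPM untreated and at 702, 638 and 682 CPM treated. The treated tumours were all above the untreated ones, but the log2 difference of 0.32 ± 0.12 was not called (edgeR adjusted p = 0.301). The response of 14559R differed from that of 14559TN by 1.11 ± 0.17 on the log2 scale, with an edgeR adjusted p of 2.8e-05. Treated 14559R tumours held 2.17 times the Wwtr1 of treated 14559TN tumours (log2 difference 1.12 ± 0.12, edgeR adjusted p = 5.86e-09). Untreated, the pair differed by 0.00 on the log2 scale, with an interval of -0.24 to 0.25.

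In the 2646 pair Wwtr1 did not pass that test and differed between the clones instead. The 2646TN tumours were at 238, 281 and 304 CPM untreated and at 269.6, 232 and 258 CPM treated. The 2646R tumours were at 492, 574 and 468 CPM untreated and at 477, 530.1 and 419 CPM treated. No 2646TN tumour reached the level of any 2646R tumour. The log2 difference was 0.90 ± 0.12 untreated and 0.91 ± 0.12 treated, with edgeR adjusted p of 7.22e-07 and 1.79e-06. Responses in the pair were -0.12 and -0.11 (edgeR adjusted p = 0.734 and 0.577), and they differed by 0.01 with an interval of -0.34 to 0.36. Untreated 2646TN also lay below untreated 14559TN and 13TN, with log2 differences of -0.98 ± 0.12 and -1.02 ± 0.12 and edgeR adjusted p of 3.06e-07 and 1.94e-07.

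Ordered by mean, the 10 groups for Wwtr1 fell into 3 blocks that did not overlap at their edges. Treated 14559R led at 674 ± 32.7 CPM. The untreated groups of 13TN, 14559R and 14559TN and both 2646R groups followed, with means from 558 ± 7.45 down to 475 ± 55.7 CPM. Treated 13TN and 14559TN and both 2646TN groups had means from 348 ± 24.6 down to 253 ± 19.4 CPM. Within the last 2 blocks each group overlapped its neighbour in the order.

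**Figure D2:**
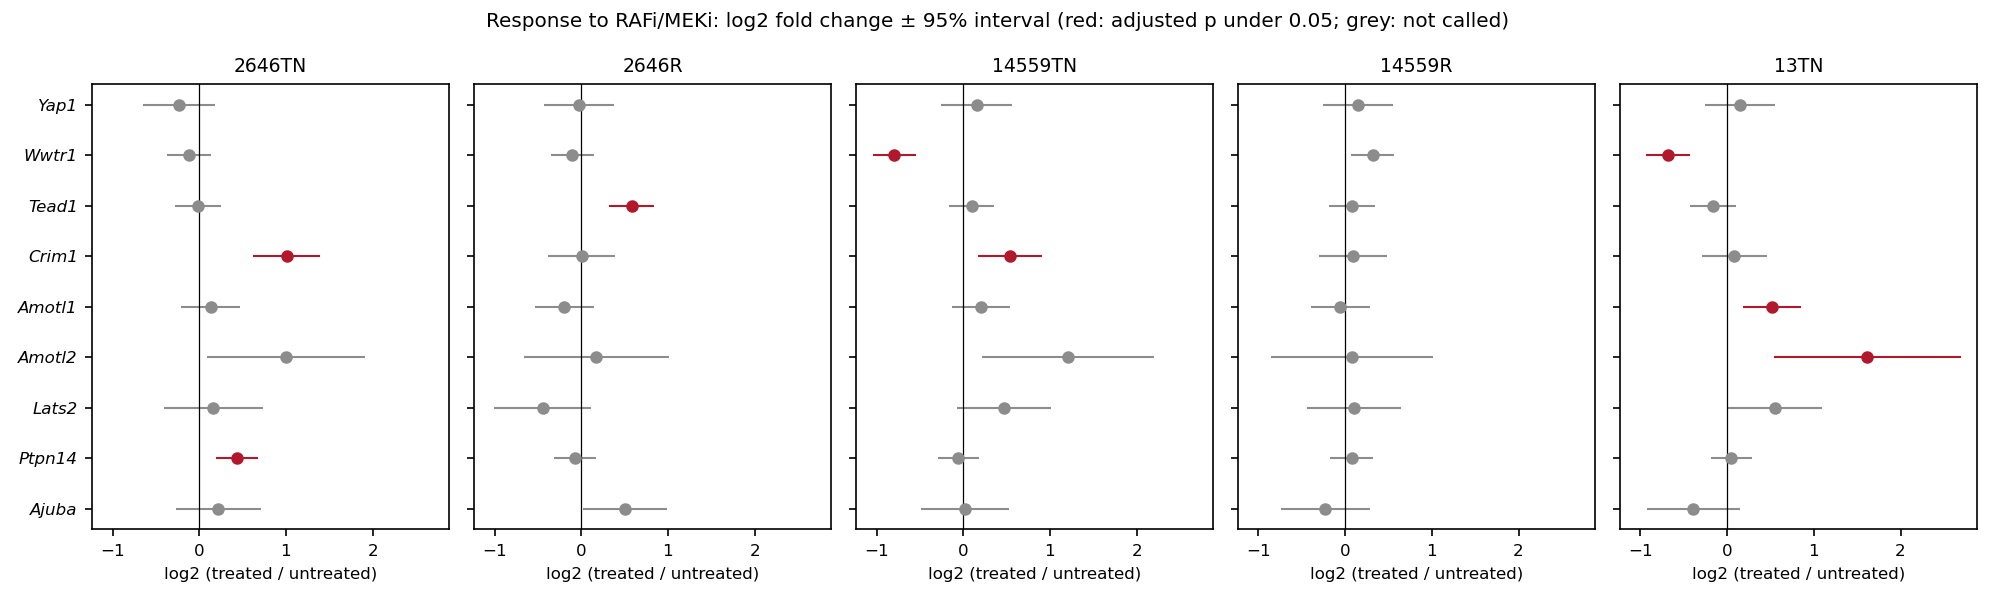
Log2 fold change of treated over untreated tumours (horizontal axis) with its 95% interval for 9 genes in each of the 5 clones, 3 tumours a group. Red points passed the test and grey points did not. Ankrd1 is left out because 3 clones had almost no counts. Wwtr1 is red and negative in 14559TN and 13TN, at -0.79 and -0.68, and no point is red in 14559R.

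Tead1, at chr7:112679318-112906807 on the plus strand, encodes a TEAD factor that carries YAP and TAZ to DNA. In 2646R tumours it was at 292, 330.2 and 235 CPM untreated and at 433, 424 and 427 CPM treated. The treated tumours were all higher, by 0.58 ± 0.13 on the log2 scale (edgeR adjusted p = 0.0011). In 2646TN tumours it was at 350.4, 398 and 344 CPM untreated and at 448, 324 and 307 CPM treated. There the groups overlapped, and the log2 difference was -0.02 with an interval of -0.28 to 0.25. The responses in the 14559TN, 14559R and 13TN clones were 0.10, 0.08 and -0.16, none of them called. In the 3 TN clones and 14559R, no interval of the Tead1 response reached beyond -0.43 or 0.36.

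The Tead1 response of 2646R exceeded that of 2646TN by 0.60 ± 0.18 on the log2 scale, with an edgeR adjusted p of 0.0478. That call was lost in 11 of 16 alternatives, over which the adjusted p ran from 0.00472 to 0.162. It was lost without untreated 2646TN replicate 1 or 2 (0.0535 and 0.102) and without untreated 2646R replicate 1 or 3 (0.0682 and 0.0985). It was also lost without treated 2646TN replicate 2 or 3 (0.0986 and 0.0678), without any 1 treated 2646R replicate (0.0648 to 0.0694), without the low-count filter (0.0532) and with only the 2646 groups in the fit (0.162). Untreated, Tead1 was lower in 2646R than in 2646TN by a log2 difference of -0.35 ± 0.13 (edgeR adjusted p = 0.0285). That call was lost without untreated 2646TN replicate 2 (adjusted p = 0.113) and without untreated 2646R replicate 1 (0.0536) or 3 (0.160), and likewise without the filter (0.0644) and with only those groups in the fit (0.0663).

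Ankrd1, at chr19:36111965-36119844 on the minus strand in the deposited tables, encodes a muscle ankyrin repeat protein and is widely read as a YAP target. Its counts came almost wholly from 1 clone pair. In 2646TN tumours it was at 9.07, 3.43 and 10.3 CPM untreated and at 14.4, 15.9 and 20.4 CPM treated. In 2646R tumours it was at 5.89, 2.84 and 9.83 CPM untreated and at 6.73, 12.4 and 15.7 CPM treated. All 12 libraries of these clones were above all 18 libraries of the other clones, which held at most 3 counts each, or 0.748 CPM. In 6 of those 18 libraries the count was 0, which allows up to 3 counts, or 0.627 to 0.922 CPM.

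Untreated 2646TN held 93 counts of Ankrd1 against 1 in untreated 14559TN, a ratio of 89.3 with a 95% counting interval of 16.0 to 3526. Against untreated 13TN, with 6 counts, the fitted log2 difference was 3.79 ± 0.67. Both differences were among those called, but Ankrd1 was tested at all only because it was high in the 2646 groups, so these calls are a description and support nothing further. Ankrd1 in treated 2646TN tumours was above that in all untreated ones, at a mean of 16.9 ± 3.15 against 7.61 ± 3.68 CPM, but the difference of 1.13 ± 0.47 was not called (edgeR adjusted p = 0.198). The response in 2646R was 0.91 ± 0.48 (edgeR adjusted p = 0.182). The 2646R and 2646TN clones themselves differed by -0.33 untreated, with an interval of -1.34 to 0.69. Ankrd1 is also abundant in striated muscle, whose 7 markers summed to 6.55 to 10.7 CPM in 2646TN libraries, 3.55 to 13.0 CPM in 2646R libraries and 1.25 to 30.7 CPM in the others. Their part in the Ankrd1 values was not tested.

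Crim1, at chr17:78200248-78376592 on the plus strand, encodes a membrane protein that binds BMP family factors and is often listed among YAP targets. Treatment raised it in 2646TN and 14559TN. In 2646TN tumours it was at 36.8, 35.8 and 34.8 CPM untreated and at 90.9, 70.1 and 55.3 CPM treated. In 14559TN tumours it was at 83.8, 72.5 and 82.4 CPM untreated and at 119, 102 and 127 CPM treated. The groups did not overlap in either clone. The log2 responses were 1.01 ± 0.19 and 0.54 ± 0.18, with edgeR adjusted p of 0.00101 and 0.0204. The second was lost without untreated 14559TN replicate 2 (adjusted p = 0.0771) or treated replicate 3 (0.0686).

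In 2646R tumours Crim1 was at 36.3, 52.6 and 47.3 CPM untreated and at 46.7, 51.5 and 38.0 CPM treated. The groups overlapped, the log2 response was 0.00 with an interval of -0.38 to 0.39, and the difference from the response of 2646TN was -1.003 ± 0.26 (edgeR adjusted p = 0.0221). That difference lost its call without untreated 2646TN replicate 2 or 3 (adjusted p = 0.0568 and 0.0538), without untreated 2646R replicate 2 (0.0646), without treated 2646TN replicate 1 (0.123), without treated 2646R replicate 1 or 3 (0.0501 and 0.0870) and with only the 2646 groups in the fit (0.0622). In 14559R tumours it was at 35.7, 46.5 and 29.8 CPM untreated and at 39.5, 42.7 and 36.9 CPM treated. In 13TN tumours it was at 58.7, 69.2 and 71.1 CPM untreated and at 55.2, 69.6 and 86.1 CPM treated. Neither clone passed the test for a response, with edgeR adjusted p of 0.923 and 0.758.

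Between clones, Crim1 was lower in 14559R than in 14559TN in every tumour, by log2 differences of -1.09 ± 0.18 untreated and -1.54 ± 0.18 treated (edgeR adjusted p = 4.25e-05 and 3.07e-08). In treated tumours it was also lower in 2646R than in 2646TN, at -0.66 ± 0.18 (edgeR adjusted p = 0.00879). That call was lost without treated 2646TN replicate 1 (adjusted p = 0.123) or treated 2646R replicate 3 (0.0749). Untreated 2646TN was below untreated 14559TN and 13TN, with log2 differences of -1.15 ± 0.19 and -0.89 ± 0.19 and edgeR adjusted p of 2.15e-05 and 0.000863.

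Ptpn14, at chr1:189728268-189876695 on the plus strand, encodes a phosphatase that binds YAP and keeps it out of the nucleus. In 2646TN tumours it was at 126, 144 and 148 CPM untreated and at 195, 162 and 207 CPM treated. The treated tumours were all higher, by 0.43 ± 0.12 on the log2 scale (edgeR adjusted p = 0.0256). The call was lost without untreated replicate 1 or 2 (adjusted p = 0.137 and 0.0687), without treated replicate 1 or 3 (0.107 and 0.0971), without the low-count filter (0.134) and with only the 2646TN groups in the fit (0.169). In the other 4 clones the log2 responses lay between -0.07 and 0.07, with intervals that reached no further than -0.31 and 0.32.

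The other 5 calls of Ptpn14 were between clones. In 14559TN tumours it was at 217, 214 and 183 CPM untreated and at 209, 186 and 196 CPM treated. In 14559R tumours it was at 108, 122 and 119.7 CPM untreated and at 125, 134 and 109 CPM treated. No tumour of 14559R reached the level of any of 14559TN. The log2 differences were -0.81 ± 0.12 untreated and -0.68 ± 0.12 treated, with edgeR adjusted p of 3.82e-06 and 1.25e-05. In 2646R tumours the means were 146 ± 3.75 CPM untreated and 139 ± 9.76 CPM treated, the latter below treated 2646TN at 188 ± 23.3 CPM. This difference of -0.44 ± 0.12 (edgeR adjusted p = 0.00682) was lost without treated 2646TN replicate 3 (adjusted p = 0.0624), without treated 2646R replicate 3 (0.0599), without the filter (0.0776) and with only those groups in the fit (0.0608). Untreated 2646TN was below untreated 14559TN and 13TN by log2 differences of -0.56 ± 0.12 and -0.49 ± 0.12, with edgeR adjusted p of 0.000623 and 0.00294.

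All 6 comparisons that called Ptpn14 also called Crim1 in the same direction. Both were higher with treatment in 2646TN, lower in untreated and treated 14559R and in treated 2646R than in the TN clone of the pair, and lower in untreated 2646TN than in untreated 14559TN and 13TN. Across the 30 libraries the Spearman correlation of their log2 levels was 0.81, the highest of any pair of the 10 genes. The libraries of a group share a clone and a treatment, so this describes the clones rather than independent samples.

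**Figure D3:**
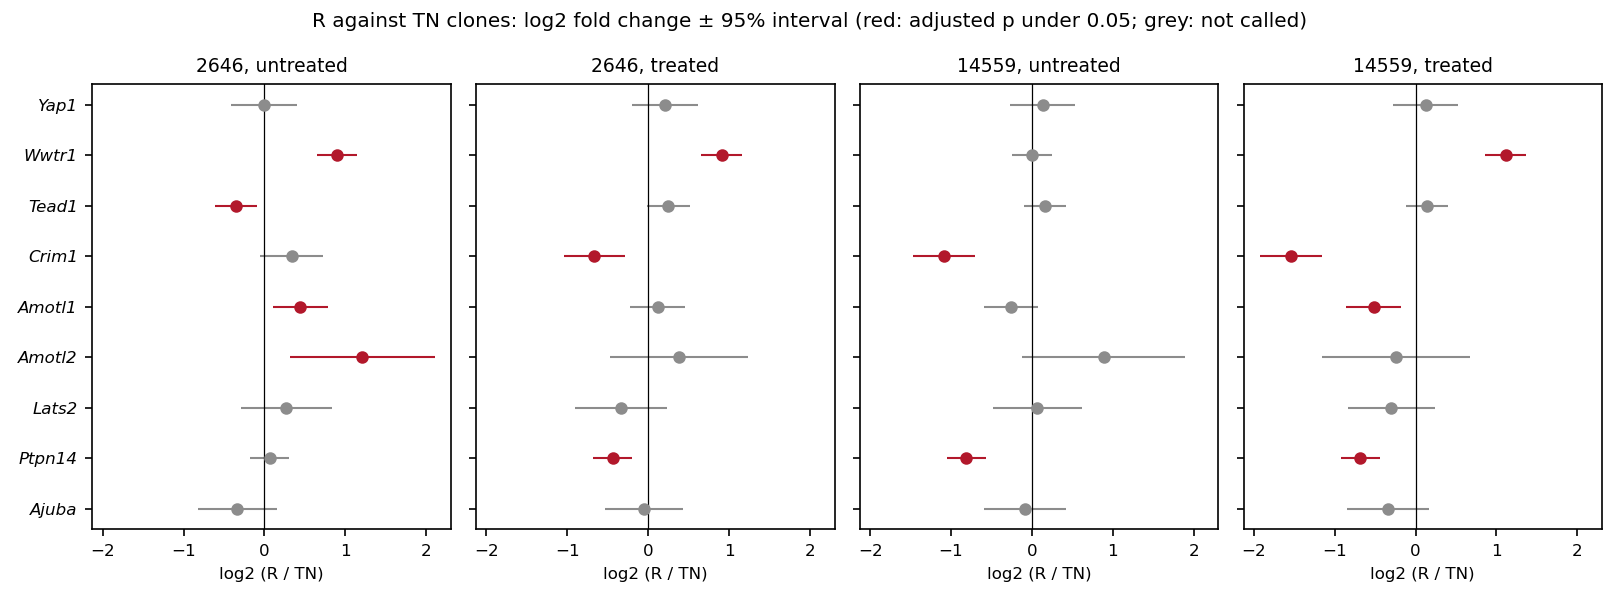
Log2 fold change of the R clone over the TN clone (horizontal axis) with its 95% interval for 9 genes in the 2646 and 14559 pairs, untreated and treated, 3 tumours a group. Red points passed the test. Crim1 and Ptpn14 are red and negative in 3 of the 4 panels, and Wwtr1 is red and positive in 3 of 4.

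Amotl1, at chr9:14541966-14645056 on the minus strand, and Amotl2, at chr9:102716672-102733418 on the plus strand, encode angiomotin-like proteins that tether YAP and TAZ at cell junctions. Amotl1 was at 262, 297 and 281 CPM in untreated 13TN tumours and at 431, 375 and 396 CPM in treated ones. The groups did not overlap, and the log2 response was 0.52 ± 0.16 (edgeR adjusted p = 0.0145). Its responses in 2646TN, 2646R, 14559TN and 14559R were 0.13, -0.20, 0.21 and -0.05, none of them called. In treated tumours Amotl1 was lower in 14559R, at 279, 276 and 259 CPM, than in 14559TN, at 355, 421 and 389 CPM (log2 difference -0.52 ± 0.16, edgeR adjusted p = 0.00902). Untreated, it was higher in 2646R than in 2646TN, at 377 ± 34.3 against 277 ± 44.8 CPM (log2 difference 0.45 ± 0.16, edgeR adjusted p = 0.0309). This last call was lost without untreated 2646TN replicate 1 (adjusted p = 0.0542) or 3 (0.185) and without untreated 2646R replicate 1 (0.122).

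Amotl2 had fewer counts, 4 to 101 in a library, and wider errors. In 13TN tumours it was at 3.41, 2.98 and 1.23 CPM untreated and at 6.09, 6.12 and 12.1 CPM treated. In 14559TN tumours it was at 5.33, 3.38 and 4.29 CPM untreated and at 8.80, 10.9 and 10.6 CPM treated. In 2646TN tumours it was at 11.3, 4.99 and 7.19 CPM untreated and at 14.7, 21.7 and 11.4 CPM treated. In each of these TN clones the treated tumours were all above the untreated ones. The log2 responses were 1.62 ± 0.52, 1.21 ± 0.48 and 1.00 ± 0.44 in 13TN, 14559TN and 2646TN, and only the first was called, the edgeR adjusted p being 0.0164, 0.0572 and 0.231.

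The Amotl2 call in 13TN was lost without untreated replicate 3 (adjusted p = 0.0814) or treated replicate 3 (0.0977). That in 14559TN was gained with median-of-ratios scaling (0.0485), with DESeq2 (0.0446), without the filter (0.00951) and with only the 14559TN groups in the fit (0.00641). In the R clones the responses were 0.17 ± 0.40 in 2646R and 0.08 ± 0.45 in 14559R. The difference of the responses from the TN clone of the pair was -0.82 ± 0.59 and -1.13 ± 0.65, and neither passed the test (edgeR adjusted p = 0.501 and 0.289). Treated 14559R replicate 3 stood at 16.7 CPM beside 4.54 and 4.64 CPM in its group. Without it the difference in the 14559 pair was -2.02 with an edgeR adjusted p of 0.0357, and treated 14559R was below treated 14559TN by a log2 difference of -1.13 (adjusted p = 0.0457).

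Untreated 2646R tumours had Amotl2 at 19.8, 9.0 and 26.2 CPM, which overlapped untreated 2646TN. The log2 difference of 1.21 ± 0.43 was called (edgeR adjusted p = 0.0271). It was lost without untreated 2646TN replicate 2 or 3 (adjusted p = 0.123 and 0.0884) and without untreated 2646R replicate 1 or 3 (0.0755 and 0.149). Untreated 2646TN was above untreated 13TN by 1.59 ± 0.52 (edgeR adjusted p = 0.0332). That call was lost without untreated 2646TN replicate 1 or 3 (0.168 and 0.0605) and without untreated 13TN replicate 2 or 3 (0.0678 and 0.162).

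Lats2, at chr14:57689662-57758388 on the minus strand, encodes a kinase that phosphorylates YAP and TAZ and is itself induced by them. Its group means ran from 20.8 ± 7.29 CPM in treated 2646R to 45.2 ± 14.1 CPM in treated 13TN, and each group overlapped its neighbour in the order. In 14559TN tumours it was at 33.0, 30.4 and 29.5 CPM untreated and at 33.2, 52.9 and 42.6 CPM treated. The treated tumours were all above the untreated ones there, by 0.47 ± 0.26 on the log2 scale, which was not called (edgeR adjusted p = 0.178). The response of 13TN was 0.55 ± 0.26 (edgeR adjusted p = 0.106), and those of 2646TN, 2646R and 14559R were 0.16, -0.44 and 0.10. The response of 14559TN passed the threshold with only its own groups in the fit (adjusted p = 0.0446), and that of 13TN did so without the filter (0.0497) or without treated replicate 1 (0.0325).

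Ajuba, at chr14:54567472-54577558 on the minus strand, encodes a LIM protein that binds LATS kinases and lowers their activity. Its means ran from 28.7 ± 7.95 CPM in treated 2646TN down to 10.0 ± 0.553 CPM in treated 13TN. Untreated 2646TN tumours were at 21.9, 24.9 and 27.2 CPM and untreated 13TN tumours at 8.03, 12.7 and 19.1 CPM. The groups did not overlap, and the log2 difference was 0.91 ± 0.25 (edgeR adjusted p = 0.00883). It was lost without untreated 2646TN replicate 3 (adjusted p = 0.0507) or untreated 13TN replicate 1 (0.0891). Treatment gave log2 responses of 0.22, 0.50, 0.02, -0.23 and -0.39 in 2646TN, 2646R, 14559TN, 14559R and 13TN, none of them called. In 2646R the treated tumours, at 28.4, 23.4 and 31.6 CPM, were all above the untreated ones, at 19.6, 18.7 and 20.5 CPM (edgeR adjusted p = 0.126).

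The other genes of the pathway were described by lists of 30 Hippo pathway genes, all tested, and 22 further YAP and TEAD targets, of which 20 were tested. Among the other Hippo genes treatment raised 4 and lowered 1 of 30 in 2646TN, where 3.94% of all tested genes were called, and the median response was 0.07 against 0.01 over all tested genes. Vgll3, a TEAD cofactor, rose from 2.07 to 11.8 CPM (2.40 ± 0.59), Fat4, an atypical cadherin upstream of Hippo signalling, rose from 3.14 to 10.6 CPM (1.76 ± 0.41), and Tead2 fell by 0.62 ± 0.17 on the log2 scale. The edgeR adjusted p of these 3 was 0.0183, 0.00999 and 0.0325. In this clone the count of 5 was 3 without untreated replicate 2, untreated replicate 3 or treated replicate 2, 0 without untreated replicate 1, and 2 with only these groups in the fit. The call of Fat4 was lost without untreated replicate 1 (adjusted p = 0.0658), and those of Vgll3 (0.117) and Tead2 (0.147) were lost there too. The calls of Vgll3 were further lost without untreated replicate 2 (0.0985) or treated replicate 2 (0.115). Those of Tead2 were lost without untreated replicate 3 (0.227) or any treated replicate (0.0514 to 0.131).

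In 14559TN treatment raised 10 and lowered 2 of the 30 other Hippo genes, where 28.4% of all tested genes were called. The count of 12 was 6 without untreated replicate 3. Fat4 rose from 10.8 to 50.1 CPM (2.21 ± 0.34, edgeR adjusted p = 7.8e-06), and Frmd6, a FERM protein upstream of the kinases, rose from 51.0 to 129 CPM (1.34 ± 0.17, adjusted p = 2.64e-07). In 13TN 4 rose and 3 fell (31% of all tested genes called). Fat4 rose from 2.28 to 18.1 CPM (2.97 ± 0.41, edgeR adjusted p = 1.2e-06), Amot, the founding angiomotin, rose from 48.7 to 114 CPM (1.22 ± 0.20, adjusted p = 2.44e-05), and Tead4 fell from 13.4 to 4.22 CPM (-1.64 ± 0.41, adjusted p = 0.00232). In 2646R 4 rose and 2 fell (19.9% of all), a count of 6 that was 3 without treated replicate 1. Btrc, a subunit of the ubiquitin ligase that degrades YAP, rose there by 0.84 ± 0.18 (edgeR adjusted p = 0.001). Tead4 fell there from 31.9 to 12.3 CPM (-1.37 ± 0.35, edgeR adjusted p = 0.0057), a call lost without treated replicate 1 (adjusted p = 0.0537). In 14559R none was called by edgeR, with 4 of 30 at an unadjusted p under 0.05, while DESeq2 and the fit without the filter each called 1, as did edgeR without untreated replicate 2. The share of all genes at these settings is not given beside these counts.

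Between the clones of a pair, Tead4 was higher in both R clones untreated. It was at 31.9 against 5.12 CPM in the 2646 pair (2.62 ± 0.39, edgeR adjusted p = 3.7e-06) and at 21.5 against 4.78 CPM in the 14559 pair (2.18 ± 0.40, adjusted p = 0.00013). Treated, the 14559 pair was at 21.6 against 3.84 CPM (2.49 ± 0.41, edgeR adjusted p = 7.85e-06). Treated 2646R was at 12.3 CPM, and its difference from treated 2646TN is not given here. The Tead4 response of 2646R differed from that of 2646TN by -2.05 ± 0.55 (edgeR adjusted p = 0.0274). That call was lost without untreated 2646TN replicate 1 or 2, treated 2646TN replicate 1 or treated 2646R replicate 1 (0.0559 to 0.0881). Vgll3 was lower in 14559R than in 14559TN, at 0.653 against 23.5 CPM untreated (-5.13 ± 0.68, edgeR adjusted p = 3.09e-06) and at 2.55 against 62.7 CPM treated (-4.60 ± 0.55, adjusted p = 1.45e-07). In the untreated 2646 pair Dchs1, a ligand of Fat4, had 3 counts in 2646R and 62 in 2646TN, a ratio of 23.1 with a counting interval of 7.89 to 112. In all, 6 of the 30 were higher and 6 lower in untreated 2646R than in 2646TN, where 36.6% of all tested genes were called. In untreated 14559R 3 were higher and 7 lower than in 14559TN, where 24.1% of all were called.

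Of the targets most used as YAP reporters, Ccn1 and Ccn2 are matricellular proteins and Axl a receptor tyrosine kinase. Ccn1 was at 88.4 ± 34.6 CPM untreated and at 35.7 ± 19.7 CPM treated in 14559TN, where its log2 response was -1.30 ± 0.37 (edgeR adjusted p = 0.0103). The groups overlapped, and the call was lost without untreated replicate 3 (adjusted p = 0.0624) or treated replicate 1 (0.0515) and with only these groups in the fit (0.168). Its responses in 2646TN, 2646R, 14559R and 13TN were -0.73, -0.28, 0.73 and -0.20, with edgeR adjusted p of 0.303, 0.617, 0.469 and 0.698. Without the filter, the responses of 2646TN and 14559R were called (0.000863 and 0.00306). Axl was higher in treated 2646TN, at 1018 ± 164 against 729 ± 29.3 CPM (0.48 ± 0.13, edgeR adjusted p = 0.0223). That was lost without untreated replicate 1 or 2 (0.0906 and 0.0568), without treated replicate 3 (0.125) and with only these groups in the fit (0.121). Ccn2 passed the test in none of the 5 responses, with edgeR adjusted p from 0.235 to 0.989. Its mean was 11.6 CPM untreated and 9.0 CPM treated in 2646R against 1.56 and 3.31 CPM in 2646TN, and 4.74 and 4.52 CPM in 14559R against 2.14 and 1.25 CPM in 14559TN. These pairs were compared after the values of Ccn2 were seen. Ccn2 was higher in untreated 2646R (2.84 ± 0.66, edgeR adjusted p = 0.00101) and in treated 14559R (1.81 ± 0.71, adjusted p = 0.0347). The treated 2646 pair (1.47 ± 0.62, adjusted p = 0.0890) and the untreated 14559 pair (1.18 ± 0.67, adjusted p = 0.210) did not pass. The call in treated 14559R was lost without treated 14559TN replicate 1 or 2 (0.149 and 0.0673) and without treated 14559R replicate 1 or 3 (0.0543 and 0.127). The treated 2646 pair passed without the filter (0.0254), with only these groups in the fit (0.0490) and without treated 2646TN replicate 2 (0.0366).

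Among the 20 other targets tested, treatment raised 5 and lowered 2 in 2646TN, where 3.94% of all tested genes were called. The count of 7 was 2, 3 and 4 without untreated replicates 1, 2 and 3, 3 without treated replicate 1, 4 with only these groups in the fit and 12 without the low-count filter. Col8a1, a short-chain collagen, rose from 74.9 to 289 CPM (1.95 ± 0.36) and Tgfb2, a growth factor, fell from 64.1 to 19.2 CPM (-1.72 ± 0.32), with edgeR adjusted p of 0.00266 and 0.00221. In 2646R 5 rose and 3 fell (19.9% of all tested genes called), a count of 8 that was 5 without treated replicate 1. Igfbp3, which binds insulin-like growth factors, fell from 546 to 103 CPM (-2.40 ± 0.23), and Gadd45a, a stress response gene, fell from 196 to 20.4 CPM (-3.26 ± 0.37), with edgeR adjusted p of 6.22e-08 and 1.14e-06. In 13TN 3 rose and 5 fell (31% of all). Igfbp3 fell from 112 to 8.80 CPM (-3.66 ± 0.28) and Gadd45a from 27.8 to 4.16 CPM (-2.74 ± 0.45), with edgeR adjusted p of 1.53e-10 and 4.97e-05. In 14559TN 4 rose and 5 fell (28.4% of all), with Ccdc80, an extracellular matrix protein, at 92.9 against 20.2 CPM (2.19 ± 0.36, edgeR adjusted p = 4.56e-05). In 14559R none was called by edgeR or DESeq2, with 4 of 20 at an unadjusted p under 0.05, and 2 were called without the filter. Here too the share of all genes at an unadjusted p under 0.05 or without the filter is not given.

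Between untreated 2646R and 2646TN, 11 of the 20 other targets were higher in 2646R and 2 lower, where 36.6% of all tested genes were called. Their median log2 difference was 0.80 against 0.00 over all tested genes, and the list as a whole was not tested. Igfbp3 was at 546 against 13.4 CPM (5.36 ± 0.28), Gadd45a at 196 against 10.9 CPM (4.19 ± 0.40) and Nuak2, a kinase, at 10.5 against 0.629 CPM (4.05 ± 0.75). Their edgeR adjusted p was 1.12e-12, 2.98e-08 and 7.15e-05. In the untreated 14559 pair 5 were higher and 4 lower in 14559R (24.1% of all tested genes called), with a median of -0.11. Igfbp3 and Gadd45a were higher there too, by 1.64 ± 0.23 and 1.62 ± 0.38, while Thbs1, an extracellular matrix glycoprotein, was lower at 5.80 against 38.1 CPM (-2.72 ± 0.47). Their edgeR adjusted p was 6.6e-06, 0.00291 and 0.000122. In treated tumours 6 of the 20 were higher and 2 lower in 2646R than in 2646TN, where 20.1% of all tested genes were called. The median there was 0.12 against -0.01 over all tested genes. Treated 14559R had 8 higher and 6 lower than 14559TN, where 49.4% of all were called, with a median of 0.15 against 0.02.

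**Figure D4:**
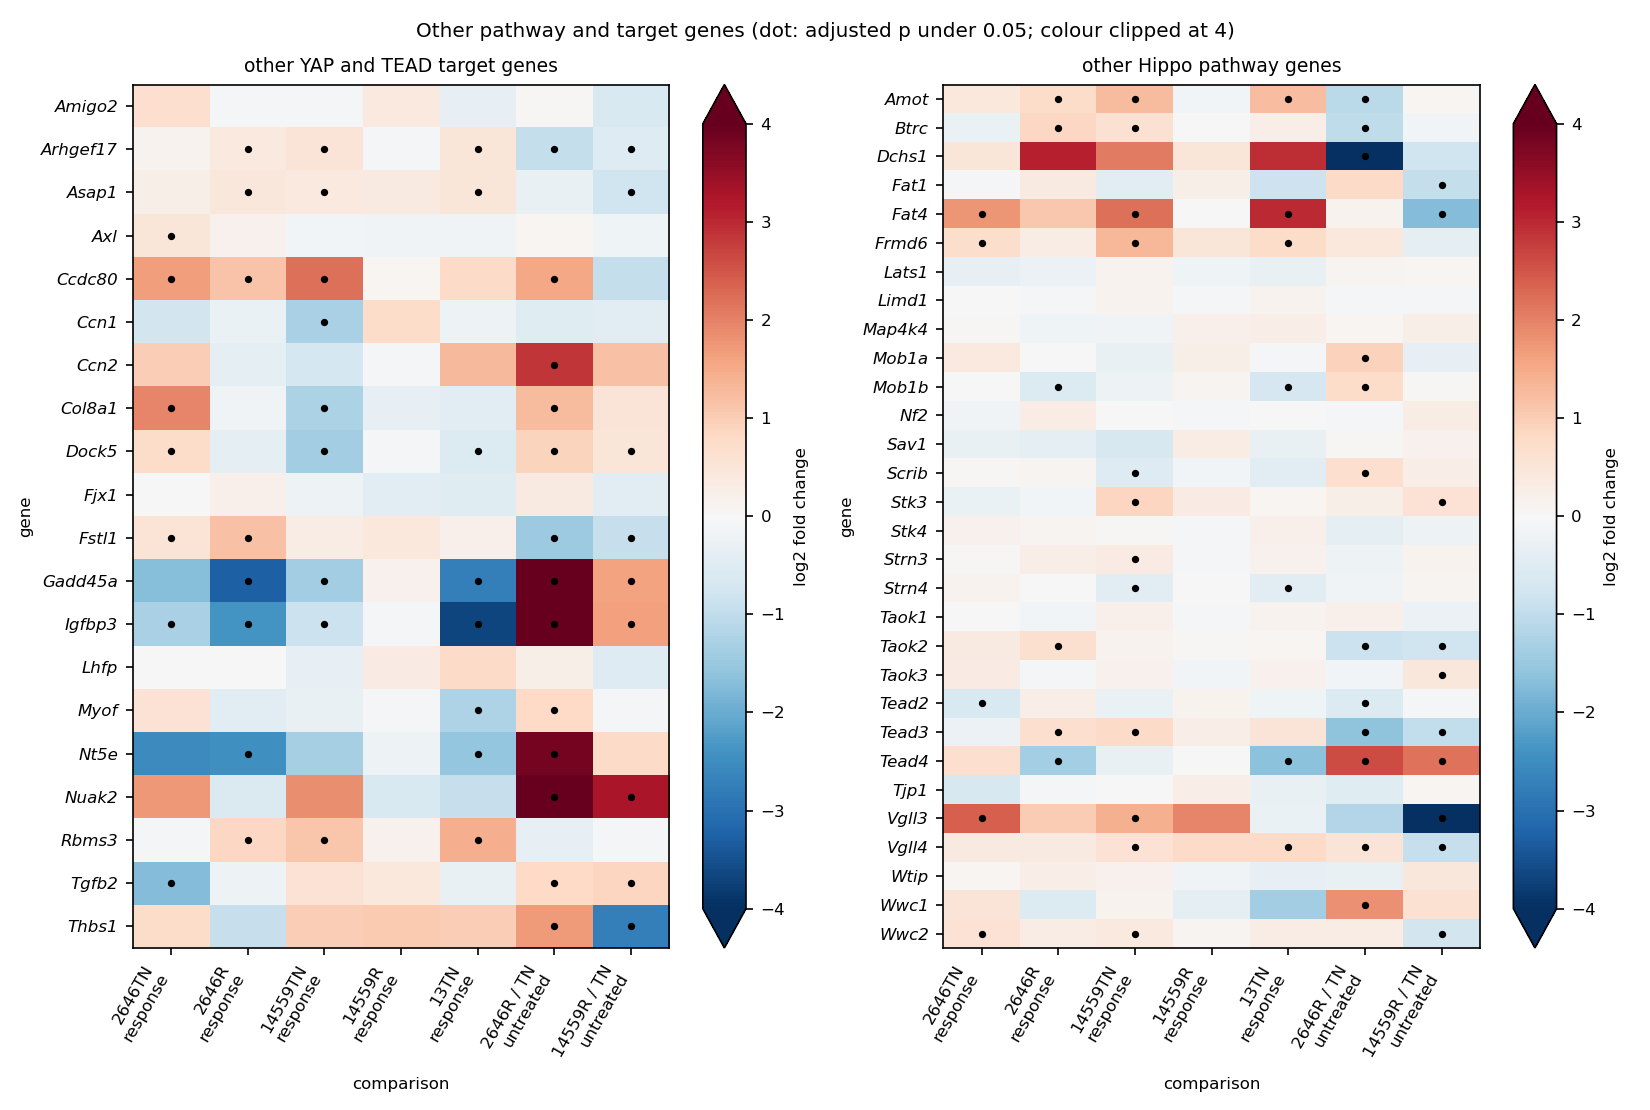
Fitted log2 fold changes (colour, clipped at 4) of the 20 other YAP and TEAD targets tested and the 30 other Hippo pathway genes (rows) in the 5 responses and the untreated R against TN comparisons (columns), with a dot where the adjusted p was under 0.05. The 14559R response column holds no dot, and the untreated 2646R against 2646TN column holds 13 among the targets. Colours of genes with very few counts, such as Dchs1, depend on the prior count.

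Cell type markers moved with treatment in several clones. Summed neural crest markers fell without overlap in 2646TN (8405 to 10381 CPM untreated, 3700 to 5498 CPM treated). They also fell in 14559TN (7181 to 8518 and 4232 to 4913 CPM) and 13TN (4533 to 5194 and 2009 to 3362 CPM). Aqp1 made up most of these sums, and Sox9 did not fall in 14559TN, at 698 and 774 CPM. Gfra2 went the other way in 2646TN, at means of 36.4 and 64.2 CPM, and in 13TN, at 26.2 and 40.9 CPM. Ngfr and Erbb3 reached group means of at most 0.614 and 1.63 CPM. In 2646R and 14559R the neural crest sums overlapped. In 2646R Sox9 fell from a mean of 2161 to 753 CPM with treatment, while Aqp1 rose from 1661 to 3059 CPM. Skeletal muscle markers summed higher with treatment, without overlap, in every clone but 2646TN. Summed fibroblast markers were at 1832 to 2335 CPM untreated and 2415 to 4514 CPM treated in 2646TN, and at 1436 to 2950 and 5069 to 6398 CPM in 2646R. They were at 3555 to 3983 and 5362 to 7699 CPM in 14559TN, and at 1748 to 2142 and 4528 to 5549 CPM in 13TN, while in 14559R the groups overlapped. Col1a1 and Col3a1, which encode fibrillar collagens, made up most of these sums, and not all 7 markers, each of which had counts, moved the same way. In 2646TN the mean of Col1a1 was 300.4 CPM untreated and 1419 CPM treated, while Pdgfra, a growth factor receptor, was at 285 and 212 CPM and Pi16 at 0.565 and 0.168 CPM. In 14559TN Pdgfra was at 408 CPM untreated and 366 CPM treated. The 9 macrophage markers, all with counts, summed to 136 to 229 CPM untreated and 26.6 to 58.6 CPM treated in 2646TN, and to 27.7 to 57.1 and 95.6 to 108.5 CPM in 2646R. Summed pericyte and smooth muscle markers, 7 in number and all with counts, were lower with treatment without overlap in 2646R (316 to 413 and 187 to 260.3 CPM), 14559TN (309 to 378 and 212 to 265 CPM) and 13TN (307 to 379 and 252 to 276 CPM). In 2646TN they were at 89.9 to 90.7 CPM untreated and 97.4 to 143 CPM treated. These 7 markers did not all move the same way either. Cspg4 fell from a mean of 226 to 80.6 CPM in 2646R, 203 to 63.0 CPM in 14559TN and 163 to 49.7 CPM in 13TN. In the same clones Pdgfrb was at 130 and 131, 140 and 155, and 174 and 205 CPM untreated and treated. Notch3 rose in all of them.

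The R and TN clones also differed in these sums. Untreated, the pericyte and smooth muscle sum of 2646R was above that of 2646TN and its macrophage sum below, without overlap, as the values above show. Treated, 2646R was above 2646TN in the fibroblast, macrophage and pericyte sums. Within the fibroblast list, the means of Col1a1 (3971 against 1419 CPM), Dcn and Pi16 were higher in treated 2646R. Those of Pdgfra (109 against 212 CPM), Col3a1 (1643 against 2065 CPM), Lum and Dpt were lower. In the 14559 pair the fibroblast sum was at 6547 to 8635 CPM in untreated 14559R and at 7783 to 13585 CPM in treated 14559R. Both were above 14559TN. The means of Pdgfra (238 against 408 CPM untreated, 310 against 366 CPM treated) and Dpt were lower in 14559R. Those of the other fibroblast markers were higher in 14559R, untreated and treated. In treated 14559R the macrophage sum was at 18.2 to 35.7 CPM against 62.3 to 111.9 CPM in 14559TN, and the pericyte and smooth muscle sum at 295 to 499 CPM against 212 to 265 CPM. The part of any of these markers in the changes of the pathway genes was not tested.

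Libraries of a group share a clone and a treatment, so the correlations below describe the clones and treatments rather than independent samples. The genes most like each member across the 30 libraries, by Spearman correlation of log2 CPM, were the following. For Wwtr1 they were Ank (0.92), Slc39a14 (0.90) and Lgals7 (0.88). Ankrd1 was followed most closely by Zdhhc2 (0.89), Cpne8 (0.87) and Map2 (0.86), and Crim1 by Mbnl1 (0.90), Gm43788 (0.86) and Spon2 (0.85). The closest to Ptpn14 were Gm43788 (0.90), Tmem161b (0.86) and Iqsec1 (0.85), so that Gm43788 appears for both Crim1 and Ptpn14. Yap1 was nearest to Itm2c (0.85), Smim14 (0.81) and Zfp65 (0.78), while the best match of Tead1, Wls, reached only 0.68. For Amotl1, Amotl2, Ajuba and Lats2 the best matches were Ensa (0.82), Bcdin3d (0.79), Stk39 (0.84) and Zkscan3 (0.80). Among the 10 genes themselves, Yap1 and Lats2 had a correlation of 0.71, Ankrd1 and Ajuba 0.70, and Yap1 ran opposite to Ajuba (-0.66) and Ankrd1 (-0.63). The correlation of Yap1 with its paralog Wwtr1 was 0.31.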

How the data were processed

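The authors used STAR 2.6.0c, featureCounts 1.6.2 and GRCm38, per the submitters' processing notes. Per the file headers, counting was stranded. The deposited values are raw counts of reads per gene from Lexogen QuantSeq 3′ libraries, 1 table per tumour, 3022801 to 5278453 counts each. Groups follow the clone and treatment labels, and replicate numbers are only names. Within groups no library repeated another: the 30 replicate pairs had a chi-square per degree of freedom of 3.26 to 17.2.

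In R 4.3.3, edgeR 4.0.16 fitted all 10 groups together (filterByExpr, TMM, robust quasi-likelihood, 20 residual degrees of freedom), which left 13286 genes. The spread between tumours of a group was 18.2% (biological coefficient of variation). The 14 comparisons are contrasts of this fit, adjusted by Benjamini-Hochberg over all tested genes and called under 0.05. The SE is the absolute log2 fold change over the root of F, and 95% intervals use the t distribution with 20 degrees of freedom. Ratios with 1 to 3 counts in a group carry Poisson intervals, which cover counting error only. The script was tested on simulated data. The 10 genes, the lists and the comparisons were chosen with earlier results of these data known. Of the lists, Ccn1, Ccn2, Axl and up to 3 called genes per list and comparison without overlap and with a mean of at least 5 CPM could be named. Alternatives were median-of-ratios factors, no filter, DESeq2 1.42.0, only the compared groups, and each library left out. For the other genes these alternatives were added after seeing the data.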

Additional observations from a re-analysis of the deposited data

Results flagged for a closer look

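Results are listed here because a test of the difference between the responses of the clones of a pair passed the threshold, and no explanation of them was weighed. The log2 response of Wwtr1 to treatment was 1.11 higher in 14559R than in 14559TN (edgeR adjusted p = 2.8e-05). The response of Crim1 was lower in 2646R than in 2646TN, with a difference of -1.003 (edgeR adjusted p = 0.0221). The response of Tead1 was 0.60 higher in 2646R than in 2646TN (edgeR adjusted p = 0.0478). Groups of 3 tumours were too small for a test of single outlying tumours.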

How the results depend on the processing

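Of 140 values of a member in a comparison, 34 were called, and 22 of these were called under every alternative run. The 12 others lost the call in at least 1 alternative. Over 1513 recomputed values none reversed, 52 lost a call and 12 gained one. The calls of Wwtr1 and those of Crim1 and Ptpn14 between 14559R and 14559TN held throughout. The 2 members called in the response of 2646TN became 1 without the filter, 1 with only those groups in the fit, and 1 to 2 with a library left out. The 2 called in 14559TN became 4 with only those groups, and 1 to 2 with a library left out. The 4 called between untreated 2646R and 2646TN became 1 to 4, and the 3 called between them treated became 1 to 3, with a library left out. The 2 response differences called in the 2646 pair became 3 with DESeq2, which added Ptpn14 (adjusted p = 0.0424), 1 without the filter, 0 with only those groups, and 0 to 1 with a library left out, and the 1 called in the 14559 pair became 1 to 2. The cause of these changes was not tested. By design the fits of compared groups only and of left-out libraries hold fewer samples.

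Of 82 called values of other genes named, 57 held in every alternative and 25 lost the call in at least 1, and none of 1039 recomputed values reversed. The median log2 fold change over all genes moved by less than 0.05 between the scalings. No paired analysis was possible because tumours carry separate codes in the labels and no replicate number joins untreated and treated tumours. Few counts limit Ankrd1 outside the 2646 clones and widen the errors of Amotl2.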
